A study of Mus musculus with 17 samples.

Results

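The response of splenic dendritic cells to debris of necroptotic tumor cells was compared between their main conventional subsets, cDC1s and cDC2s. Each gene was tested for a difference between the response of cDC1s and the response of cDC2s, and the genes found were then grouped into those that responded in 1 subset and missed the threshold in the other, those that moved in opposite directions, and those that moved in the same direction by unequal amounts. Of the 17 samples of the study, 11 entered this comparison: 3 of cDC1s with WT medium (WT_cDC1), 3 of cDC1s with RIPK3 medium (RIPK3_cDC1), 3 of cDC2s with WT medium (WT_cDC2) and 2 of cDC2s with RIPK3 medium (RIPK3_cDC2).

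The cells came from spleens of 8-week-old female C57BL/6JRj mice that all carried a B16 melanoma secreting FLT3 ligand, a growth factor that expands dendritic cells, and the spleens of several mice were pooled. CD11c+ cells were enriched magnetically and cultured for 6 h with GM-CSF and with medium taken, uncentrifuged, from TC-1 cells, a line of transformed mouse lung epithelium. In every group the TC-1 cells had been given cumate. WT cells stayed alive, whereas TC-1-iRIPK3 cells, a single clone, switch on a RIPK3 protein that assembles by itself and die by necroptosis, so that their medium holds dead cells together with whatever the cells released. Only after this shared culture were cDC1s (XCR1+CD8α+) and cDC2s (SIRPα+CD11b+) sorted apart and their polyadenylated RNA sequenced. Each subset could therefore also have received signals from the other. The labels do not say whether replicates came from separate mice, and where they did not, the p-values measure only the spread between these samples. Each sample held between 16095159 and 21410901 counts in genes.

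Conventional dendritic cells take up dead cells and present their antigens to T cells. cDC1s depend on the transcription factor IRF8, take up dead cells well and present exogenous antigen on MHC class I to CD8+ T cells, whereas cDC2s are known mainly for presentation to CD4+ T cells and for cytokine production. Necroptosis is a lytic form of death, in which RIPK3 activates the pore-forming protein MLKL and the cell spills its contents. Among the responses known to follow uptake of such material are the antioxidant program driven by NRF2, the breakdown of heme, the handling of lipids and, through interferon, the transcription of antiviral genes.

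The sorted populations carried the markers of their labels. Xcr1, the chemokine receptor used in the cDC1 gate, had 148, 149.7 and 159.8 CPM (counts scaled to a common library size after TMM normalization) in WT_cDC1 and 211, 233 and 236 CPM in RIPK3_cDC1, but at most 0.970 CPM in any cDC2 sample. Sirpa, the surface protein of the cDC2 gate, lay between 174 and 206 CPM in all cDC2 samples and did not exceed 2.30 CPM in cDC1s. The summed level of 10 cDC1 markers was 1762 to 1981 CPM in WT_cDC1, 1627 to 1733 CPM in RIPK3_cDC1 and 121 to 166 CPM in cDC2s. That of 10 cDC2 markers was 332 to 410 CPM in cDC2s and 2.70 to 5.18 CPM in cDC1s. Markers of epithelial tumor cells summed to 8.17 to 10.4 CPM in cDC1s, to 32.2 to 42.7 CPM in WT_cDC2 and to 21.8 to 27.5 CPM in RIPK3_cDC2. Most of the cDC2 sum was Cdh1, which encodes E-cadherin, with 29.3, 37.7 and 31.1 CPM in WT_cDC2 and 16.7 and 24.1 CPM in RIPK3_cDC2, while the keratin Krt8 was at most 0.151 CPM in any sample. Platelet markers summed to 6.97 to 8.75 CPM in WT_cDC1 and 24.3 to 31.7 CPM in RIPK3_cDC1, but to 7.64 to 25.4 CPM in WT_cDC2 and 9.51 to 11.2 CPM in RIPK3_cDC2. WT_cDC2 replicate 3 stood apart, with the 25.4 CPM, and Pf4 lay at 0.0513, 0 and 2.86 CPM and Ppbp at 0, 0 and 3.29 CPM in replicates 1, 2 and 3, while Gp1ba, Gp6 and Treml1 had counts in no other WT_cDC2 sample. Without this library 258 genes had a called difference in response in place of 217, and of the genes named by rule Tssc4, Slc30a1, Dnase1l3, Pla2g7 and Sema4f were lost. The rise in cDC1s was mostly Ppbp, from 0.897, 0.560 and 0.943 to 21.3, 15.6 and 18.8 CPM, whereas Itga2b was the highest of the list in WT_cDC1 and in all cDC2 samples. The 12 macrophage markers summed to less with RIPK3 medium in both subsets, from 65.2 to 68.3 CPM down to 27.9 to 31.2 CPM in cDC1s and from 61.7 to 69.4 CPM down to 38.4 to 41.4 CPM in cDC2s. In cDC1s most of this sum was 1 gene, Timd4, a receptor for phosphatidylserine, which went from 58.6, 55.5 and 54.8 to 24.7, 26.1 and 20.7 CPM, and 2 of the 12 were called lower in cDC1s and 3 in cDC2s, where 5.74% and 5.05% of all genes were. The part of such cells in the results below was not tested. In sorted bulk samples a change in the make-up of a gate and a change in RNA per cell cannot be told apart.

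A difference in response was found for 217 of 19082 genes (1.14%) with edgeR's quasi-likelihood test at a Benjamini-Hochberg adjusted p under 0.05. The value tested, called the interaction here, is the log2 fold change of RIPK3 over WT medium in cDC1s minus that in cDC2s, so that 0 stands for equal responses. It was positive for 126 genes (0.66%) and negative for 91 genes (0.477%), and its median over all tested genes was 0.02. Among the called genes the absolute interaction had a median of 0.72, and it passed 1 for 60 of them. With limma on log2(count + 1) without normalization, the model of the study's methods but with the threshold used here and not the study's own, 109 genes were called, 89 positive and 20 negative, so that the positive share was 81.7% in place of 58.1%. The number of calls ranged widely over the alternatives. It was highest with a term for the replicate number in the model, at 449 genes (251 positive, 198 negative). These held all 217 of the main fit, of which 199 kept their class. Leaving out 1 library gave 111 (without RIPK3_cDC2 replicate 2) to 258 (without WT_cDC2 replicate 3), with 148 without RIPK3_cDC2 replicate 1 and 151 without either WT_cDC1 replicate 1 or RIPK3_cDC1 replicate 1, and without a filter on low counts 371 genes were called. The sign of the interaction of each called gene was the same in all 20 alternatives in which it was tested, and 54 genes were called in all of them.

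A gene called in both subsets nearly always moved in the same direction in each. RIPK3 medium raised 1244 genes (6.52%) and lowered 1095 (5.74%) in cDC1s, and raised 1145 (6%) and lowered 963 (5.05%) in cDC2s. Of 1220 genes called in both, 1206 moved in the same direction. Another 1119 genes passed the threshold in cDC1s alone and 888 in cDC2s alone, but the difference itself was called for only 57 and 66 of these, since missing a threshold in 1 subset is not a difference between subsets. The called genes thus comprised 57 that responded in cDC1s (36 higher, 21 lower), 66 that responded in cDC2s (46 higher, 20 lower), 14 of opposite response, 79 that moved the same way by unequal amounts, and Tox3, for which neither response passed and whose call was lost without any 1 of 9 libraries. The sizes of these classes moved widely with the library left out and with the test, as given at the end. For 38 of the 57 and 54 of the 66, the 95% interval of the response in the other subset lay within 0.5 of 0 on the log2 scale. Nearly all were transcribed in both subsets, 211 of 217 reaching a mean of 1 CPM in at least 1 group of each.

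**Figure D1:**
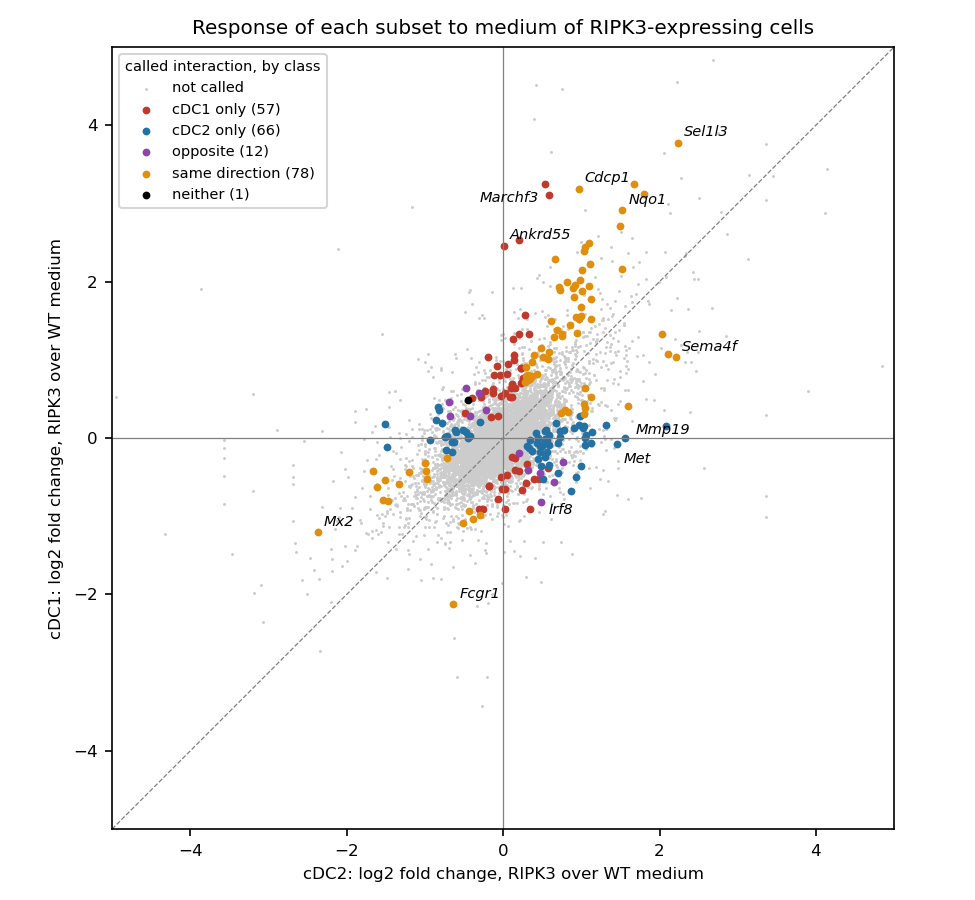
Log2 fold change with RIPK3 over WT medium in cDC1s (vertical axis) against cDC2s (horizontal axis), 1 point per gene. Grey points are genes without a called interaction and a mean of at least 1 CPM in 1 of the groups (1 lies outside the axes), colored points the 214 called genes above the floor in every group, and the dashed line marks equal responses. Called genes lie along each axis (1 subset) and above the dashed line in the upper right field (both rise, larger in cDC1s).

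Of the genes that rose in cDC1s and missed the threshold in cDC2s, Marchf3 had the largest difference among those with at least 10 CPM in a group. It encodes a membrane-bound ubiquitin ligase. Marchf3 measured 1.59, 2.29 and 1.98 CPM in WT_cDC1 and 14.9, 20.3 and 15.2 CPM in RIPK3_cDC1, against 1.85, 1.55 and 1.67 CPM in WT_cDC2 and 2.91 and 2.23 CPM in RIPK3_cDC2. All cDC1 samples with RIPK3 medium lay above every other sample. The interaction was 2.51 ± 0.33 (SE, adjusted p = 3.19e-05), made of a rise of 3.10 in cDC1s (adjusted p = 1.29e-13) and a difference of 0.59 in cDC2s (95% interval 0.04 to 1.14, adjusted p = 0.185). Ankrd55 (chr13:112424985-112520536), an ankyrin repeat protein, followed with an estimate near 0 in cDC2s. It went from 3.49, 3.61 and 3.19 to 17.0, 20.6 and 19.0 CPM in cDC1s, while cDC2s had 1.59, 1.78 and 1.94 CPM with WT and 1.55 and 1.99 CPM with RIPK3 medium. Its interaction was 2.45 ± 0.27 (adjusted p = 2.44e-06), and the cDC2 estimate was 0.01 with a 95% interval of -0.48 to 0.50. Both genes were low in each subset with WT medium. Gene coordinates here and below are in GRCm39.

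Other genes of this class are Zeb2, Mmd, Tssc4 and Slc30a1. Zeb2, a repressor known for its part in cDC2 and monocyte development, rose in cDC1s from 8.22, 6.66 and 8.08 to 22.5, 18.7 and 16.8 CPM. In cDC2s, where it is abundant, it measured 202, 183 and 133 CPM with WT and 209 and 189 CPM with RIPK3 medium, groups that overlap in part. The interaction of 1.13 (adjusted p = 0.026) missed the threshold without any 1 of 7 libraries, most clearly without RIPK3_cDC2 replicate 2, adjusted p = 0.149. Mmd, a membrane protein of macrophage differentiation, rose in cDC1s from 3.54, 3.82 and 4.40 to 11.9, 10.7 and 12.7 CPM, which stayed below its level in cDC2s, 18.9, 21.7 and 24.9 CPM with WT and 28.0 and 25.2 CPM with RIPK3 medium. Its interaction was 1.29 (adjusted p = 0.000265). Tssc4, a factor in the assembly of the spliceosome, had 53.7, 68.5 and 63.0 CPM with WT and 118, 156 and 173 CPM with RIPK3 medium in cDC1s against 15.0, 13.7 and 17.2 CPM with WT and 16.9 and 16.4 CPM with RIPK3 medium in cDC2s, an interaction of 1.15 (adjusted p = 0.00605) that was lost without WT_cDC2 replicate 3 and without RIPK3_cDC2 replicate 2, adjusted p = 0.0713. Slc30a1, the exporter of zinc across the plasma membrane, rose from 6.82, 6.77 and 8.85 to 20.0, 17.6 and 18.8 CPM in cDC1s and measured 4.21, 2.81 and 4.64 CPM with WT and 5.30 and 4.51 CPM with RIPK3 medium in cDC2s. Its interaction of 1.00 (adjusted p = 0.0342) was lost without any 1 of 8 libraries (without RIPK3_cDC2 replicate 2, adjusted p = 0.278).

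Mylip, of the list of LXR targets, was in the same class. It encodes the ubiquitin ligase IDOL, a target of the sterol sensor LXR that degrades the LDL receptor. It rose in cDC1s from 71.4, 58.9 and 63.8 to 121, 102 and 116 CPM and lay at 18.1, 17.4 and 17.4 CPM with WT and 15.7 and 16.7 CPM with RIPK3 medium in cDC2s (interaction 0.92 ± 0.15, adjusted p = 0.000369). Picked after its values were seen, Soat1, which esterifies cholesterol for storage in droplets, had overlapping levels in both subsets with WT medium, 65.7, 64.9 and 66.3 CPM in cDC1s and 75.1, 70.3 and 59.5 CPM in cDC2s. With RIPK3 medium it reached 134, 120.2 and 124 CPM in cDC1s and 71.7 and 70.5 CPM in cDC2s, an interaction of 0.89 (adjusted p = 2.04e-05) with a cDC2 interval of -0.11 to 0.23. Also picked after their values were seen, Clec2i, a C-type lectin ligand, rose by 0.92 in cDC1s with -0.08 in cDC2s, and Zyx, the adhesion protein zyxin, by 0.69 with 0.11 in cDC2s (adjusted p of the interactions 1.42e-06 and 0.00109). Of 11 LXR targets, 1 had a more positive and 1 a more negative interaction (18.2% called, against 1.14% of all genes, and 1 gene with limma on log2(count + 1) or without RIPK3_cDC2 replicate 2), and the median was -0.06. Of 24 genes of cholesterol synthesis none had a called interaction with edgeR, DESeq2 or limma (1 without WT_cDC2 replicate 3), 5 had an unadjusted p under 0.05, and 3 rose in cDC1s and 8 in cDC2s, where 6.52% and 6% of all genes rose.

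Of the 21 genes that fell in cDC1s and missed the threshold in cDC2s, 11 were higher in cDC1s with WT medium and 10 in cDC2s. Mycl encodes L-MYC, a transcription factor that cDC1s need for their expansion. It fell from 81.3, 71.5 and 81.0 to 54.5, 46.8 and 45.7 CPM in cDC1s and measured 17.6, 12.7 and 13.9 CPM with WT and 19.6 and 15.3 CPM with RIPK3 medium in cDC2s. The interaction was -0.91 ± 0.18 (adjusted p = 0.00813), and the call was lost without RIPK3_cDC2 replicate 1, adjusted p = 0.113. Fyb1 (chr15:6552334-6692794), the adhesion adaptor ADAP, fell from 68.9, 67.8 and 64.4 to 40.0, 32.9 and 34.1 CPM, close to its level in cDC2s of 29.1, 29.7 and 26.2 CPM with WT and 28.8 and 28.9 CPM with RIPK3 medium. The change in cDC2s was 0.03 (95% interval -0.19 to 0.24) and the interaction -0.94 ± 0.14 (adjusted p = 0.000151). Tle3, a corepressor, went from 363, 357 and 348 to 218, 215 and 187 CPM in cDC1s and from 217, 235 and 201 to 195 and 219.9 CPM in cDC2s, where the groups overlap (interaction -0.72, adjusted p = 0.000115). For these 3 genes every cDC1 sample with RIPK3 medium was below every cDC1 sample with WT medium.

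In 3 further genes of this class the cDC2 estimate was positive without passing its own threshold. Cdh17, a cadherin, fell in cDC1s from 64.7, 60.4 and 61.2 to 42.6, 45.8 and 41.2 CPM and measured 5.08, 5.91 and 4.96 CPM with WT and 7.05 and 6.91 CPM with RIPK3 medium in cDC2s (change 0.39, adjusted p = 0.0806; interaction -0.92, adjusted p = 0.0022). Pik3r6, a regulatory subunit of PI3-kinase gamma, fell from 12.7, 11.2 and 11.2 to 8.35, 7.63 and 7.48 CPM in cDC1s and stood at 36.1, 36.3 and 38.6 CPM with WT and 43.8 and 46.5 CPM with RIPK3 medium in cDC2s (change 0.29, adjusted p = 0.0502; interaction -0.87, adjusted p = 0.00068). Dnase1l3, a secreted nuclease that digests the DNA of dead cells, fell from 24.8, 22.8 and 24.9 to 16.9, 17.5 and 21.3 CPM in cDC1s. In cDC2s it had 1.90, 2.52 and 1.94 CPM with WT and 2.46 and 3.81 CPM with RIPK3 medium, with overlap between the groups. Its interaction of -0.96 (adjusted p = 0.0357) missed the threshold without any 1 of 7 libraries (without RIPK3_cDC2 replicate 2, adjusted p = 0.67). Picked after their values were seen, the kinase Syk fell by 0.42 and the Fc receptor Fcgr3 by 0.91 on the log2 scale in cDC1s, against 0.20 and -0.25 in cDC2s. Their interactions of -0.61 and -0.66 had adjusted p of 0.00457 and 0.0214. Syk was lost without RIPK3_cDC2 replicate 2, adjusted p = 0.121, and Fcgr3 without any 1 of 4 libraries (without RIPK3_cDC2 replicate 2, adjusted p = 0.221).

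Mmp19 (chr10:128626773-128636695), a secreted metalloproteinase, was among the genes that rose in cDC2s and missed the threshold in cDC1s. It had 46.7, 55.0 and 53.8 CPM in WT_cDC2 and 161 and 145 CPM in RIPK3_cDC2, against 27.9, 25.3 and 28.5 CPM in WT_cDC1 and 27.9, 24.4 and 29.2 CPM in RIPK3_cDC1. The cDC2 groups lay far apart and the cDC1 groups overlapped. The response was 1.57 in cDC2s and close to 0 in cDC1s (95% interval -0.19 to 0.18), an interaction of -1.57 ± 0.13 (adjusted p = 3.06e-08). Met (chr6:17463749-17573979), the receptor of hepatocyte growth factor, is the more abundant in cDC1s. There it measured 19.6, 19.2 and 20.6 CPM with WT and 15.7, 21.8 and 18.6 CPM with RIPK3 medium, while it rose in cDC2s from 4.77, 4.82 and 3.18 to 11.4 and 12.0 CPM, an interaction of -1.54 ± 0.20 (adjusted p = 2.96e-05). With edgeR, Met was the only called gene of 37 tested receptors of cytokines and growth factors and Mmp19 that of 24 proteases, inhibitors and matrix genes, while DESeq2 called 3 and 2. With 1 gene each, the shares called by edgeR were 2.7% and 4.17%, against 1.14% of all genes.

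Among 29 tested cytokines and growth factors, 4 had a called interaction (13.8%, against 1.14% of all genes), all 4 from a rise in cDC2s that missed the threshold in cDC1s. The list as a whole did not share the negative sign of these 4. Its median interaction was 0.27, and 18 of the 29 estimates were above 0. Il6, a pleiotropic inflammatory cytokine, had 39.9, 37.3 and 34.3 CPM in WT_cDC2 and 67.6 and 56.0 CPM in RIPK3_cDC2. In cDC1s it was at 57.0, 64.8 and 60.3 CPM with WT and 56.8, 65.7 and 61.3 CPM with RIPK3 medium, around the level that cDC2s reached with RIPK3 medium. The interaction was -0.72 ± 0.12 (adjusted p = 0.00116), with a cDC1 interval of -0.15 to 0.18. Vegfa, the growth factor of blood vessels, rose in cDC2s from 258, 254 and 226 to 369.7 and 372 CPM and measured 89.6, 90.5 and 89.8 CPM with WT and 90.6, 79.6 and 84.3 CPM with RIPK3 medium in cDC1s (interaction -0.68 ± 0.09, adjusted p = 7.48e-05). Inhba, which encodes the activin A subunit, rose in cDC2s from 44.1, 37.5 and 38.6 to 81.6 and 68.5 CPM against 5.78, 5.75 and 4.76 CPM with WT and 6.32, 5.37 and 6.10 CPM with RIPK3 medium in cDC1s (interaction -0.77, adjusted p = 0.00805; without RIPK3_cDC2 replicate 1, adjusted p = 0.0762). For Tgfb1, the anti-inflammatory cytokine TGF-β1, the values were 131, 143 and 145 CPM with WT and 195 and 207 CPM with RIPK3 medium in cDC2s and 186, 186 and 188 CPM with WT and 201, 191 and 205 CPM with RIPK3 medium in cDC1s (interaction -0.44, adjusted p = 0.00758; without RIPK3_cDC2 replicate 2, adjusted p = 0.103). Over the whole list 2 genes rose and 1 fell in cDC1s, and 8 rose and 3 fell in cDC2s, where of all genes 6.52% rose and 5.74% fell in cDC1s and 6% rose and 5.05% fell in cDC2s. None of the 20 tested chemokines had a called interaction with edgeR (5 at an unadjusted p under 0.05, 0 with DESeq2, 1 with limma). Among 23 genes of maturation, costimulation and migration none was called with edgeR, DESeq2 or limma, and 1 had an unadjusted p under 0.05. With limma on log2(count + 1) without normalization, 1 gene of the cytokine list was called, and it was none of these 4.

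**Figure D2:**
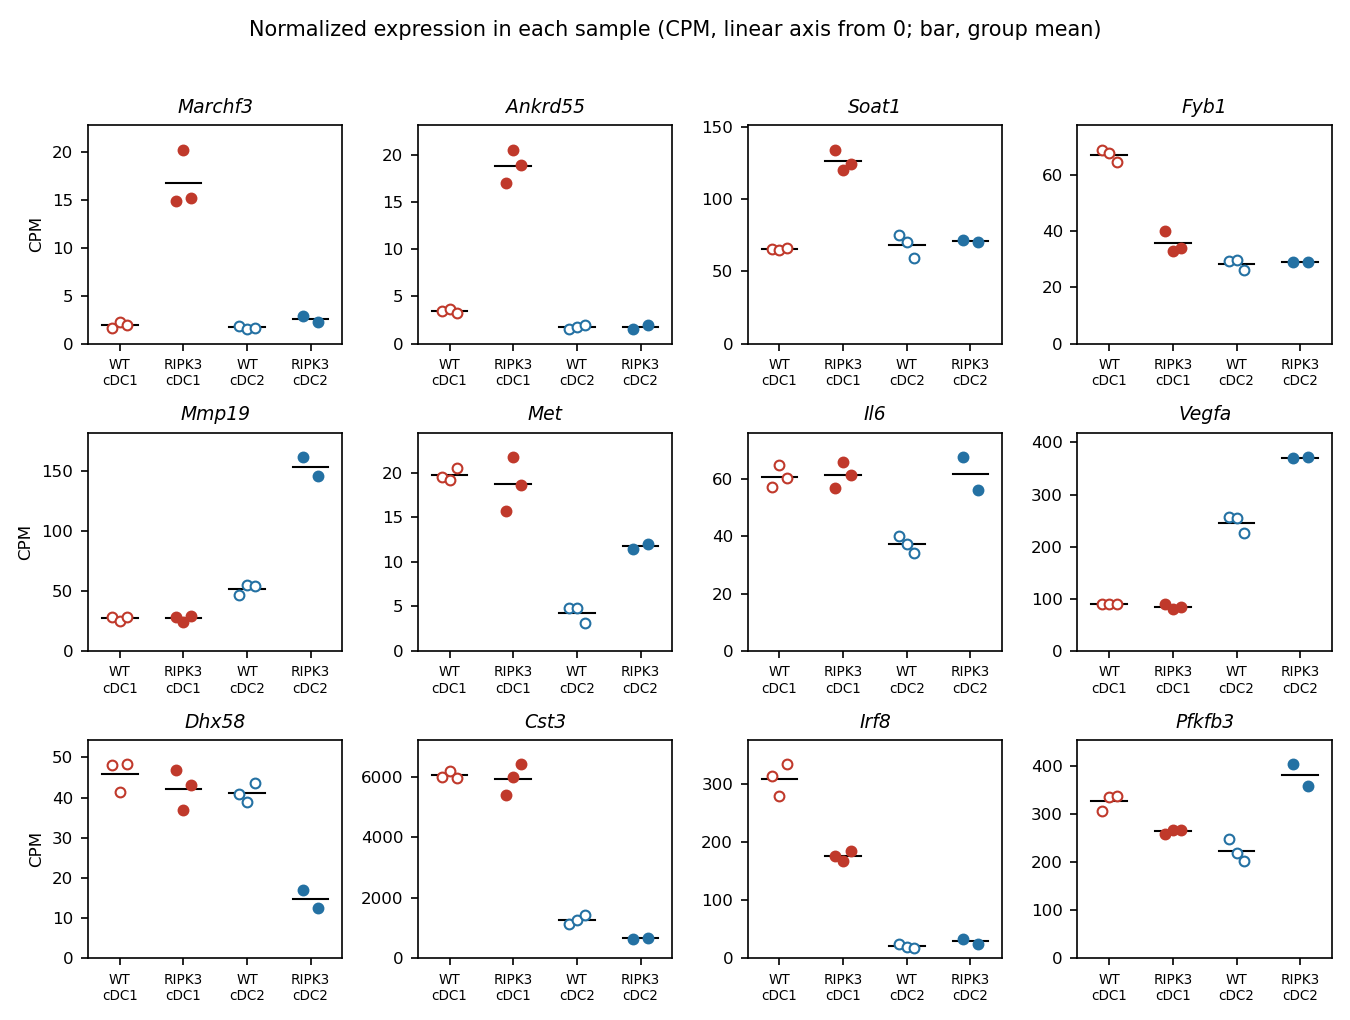
Normalized expression of 12 genes in each sample (CPM, linear axes that start at 0), with open points for WT and filled points for RIPK3 medium, red for cDC1s, blue for cDC2s and a bar at the group mean. Marchf3, Ankrd55, Soat1 and Fyb1 changed in cDC1s, Mmp19, Met, Il6, Vegfa, Dhx58 and Cst3 in cDC2s, and Irf8 and Pfkfb3 in opposite directions.

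Eif5a2, an isoform of a translation factor, went from 13.0, 13.5 and 10.9 to 28.3 and 23.4 CPM in cDC2s and measured 8.22, 7.68 and 7.23 CPM with WT and 6.98, 8.08 and 6.62 CPM with RIPK3 medium in cDC1s (interaction -1.14, adjusted p = 0.000612). Gk, glycerol kinase, rose from 14.1, 15.4 and 15.3 to 27.9 and 33.9 CPM in cDC2s, with 12.6, 11.9 and 12.3 CPM with WT and 11.6, 14.4 and 10.8 CPM with RIPK3 medium in cDC1s (interaction -1.05, adjusted p = 0.000214). Fbxo31, a substrate receptor of a ubiquitin ligase, rose from 21.3, 24.0 and 24.8 to 48.4 and 54.5 CPM in cDC2s against 10.0, 9.16 and 9.38 CPM with WT and 10.1, 9.13 and 11.0 CPM with RIPK3 medium in cDC1s (interaction -1.06, adjusted p = 0.000226). For these 3 genes the groups lay apart in cDC2s and overlapped in cDC1s. Hopx, an atypical homeodomain protein, is hardly transcribed in cDC1s, where it had 0.697, 1.02 and 1.03 CPM with WT and 0.708, 0.452 and 0.805 CPM with RIPK3 medium. In cDC2s it rose from 15.5, 14.2 and 17.8 to 31.9 and 28.5 CPM, and its interaction of -1.43 (adjusted p = 0.0244) was lost without any 1 of 5 libraries (without WT_cDC1 replicate 3, adjusted p = 0.124). Lrp1, an uptake receptor for dying cells and their bridging molecules, rose in cDC2s from 254, 265 and 214 to 318 and 361 CPM and measured 73.7, 79.0 and 79.7 CPM with WT and 74.4, 71.1 and 59.9 CPM with RIPK3 medium in cDC1s (interaction -0.65, adjusted p = 0.00271; without RIPK3_cDC2 replicate 2, adjusted p = 0.0635). P2rx7, the ATP-gated channel, had 12.1, 10.3 and 10.2 CPM with WT and 14.7 and 15.8 CPM with RIPK3 medium in cDC2s and 6.92, 6.36 and 5.75 CPM with WT and 5.26, 5.47 and 4.08 CPM with RIPK3 medium in cDC1s (interaction -0.84, adjusted p = 0.0348), a call lost without any 1 of 8 libraries (without RIPK3_cDC2 replicate 2, adjusted p = 0.196).

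Genes that fell in cDC2s and missed the threshold in cDC1s included a sensor of viral RNA. Dhx58 (chr11:100585710-100595097), which encodes the helicase LGP2, started from a similar level in both subsets, 48.2, 41.3 and 48.3 CPM in WT_cDC1 and 40.8, 38.9 and 43.6 CPM in WT_cDC2. With RIPK3 medium it had 46.8, 36.9 and 43.0 CPM in cDC1s, overlapping the WT samples, and 16.9 and 12.5 CPM in cDC2s. The response was -1.49 in cDC2s and -0.12 in cDC1s (95% interval -0.35 to 0.11), with an interaction of 1.37 ± 0.18 (adjusted p = 9.23e-05). Plscr1, an interferon-inducible scramblase of membrane lipids, fell in cDC2s from 30.8, 28.1 and 31.2 to 17.4 and 17.5 CPM and had 8.72, 7.88 and 7.99 CPM with WT and 9.05, 9.34 and 9.84 CPM with RIPK3 medium in cDC1s (interaction 0.98, adjusted p = 0.000151). Psmb8, a subunit of the immunoproteasome, fell in cDC2s from 168, 182 and 210.5 to 138 and 136 CPM with 330.2, 307 and 318 CPM with WT and 306, 305 and 346 CPM with RIPK3 medium in cDC1s. It was the only called gene of 22 in antigen presentation, 4.55% against 1.14% of all genes, with 0 called by limma on log2(count + 1) (interaction 0.45, adjusted p = 0.0394), and it was lost without any 1 of 9 libraries (without RIPK3_cDC2 replicate 2, adjusted p = 0.203).

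Cst3, cystatin C, an inhibitor of cysteine cathepsins and among the most abundant transcripts of cDC1s, fell in the subset that has less of it. In cDC2s it went from 1135, 1270.4 and 1436 to 653 and 687 CPM, and in cDC1s it had 6002, 6179.6 and 5964 CPM with WT and 5409, 5982 and 6409.7 CPM with RIPK3 medium. The cDC1 interval was -0.18 to 0.12 and the interaction 0.91 ± 0.11 (adjusted p = 1.09e-05). Ptpn6, the phosphatase SHP-1 that damps receptor signaling, fell in cDC2s from 59.8, 66.7 and 66.5 to 36.1 and 34.9 CPM and stood at 173, 139 and 158 CPM with WT and 209.7, 162 and 177 CPM with RIPK3 medium in cDC1s (interaction 1.08, adjusted p = 0.000313). Hepacam2, an adhesion protein, fell in cDC2s from 211, 238 and 242 to 139 and 141 CPM against 342, 362 and 352 CPM with WT and 346, 365 and 366 CPM with RIPK3 medium in cDC1s (interaction 0.75, adjusted p = 3.19e-05). Cd69, an early activation antigen that retains cells in tissue, fell in cDC2s from 33.1, 29.8 and 32.2 to 20.0 and 18.0 CPM, with 7.82, 6.31 and 6.11 CPM with WT and 7.38, 6.37 and 6.67 CPM with RIPK3 medium in cDC1s. Its interaction of 0.76 (adjusted p = 0.0111) was lost without RIPK3_cDC1 replicate 1 and without RIPK3_cDC2 replicate 2, adjusted p = 0.12.

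**Figure D3:**
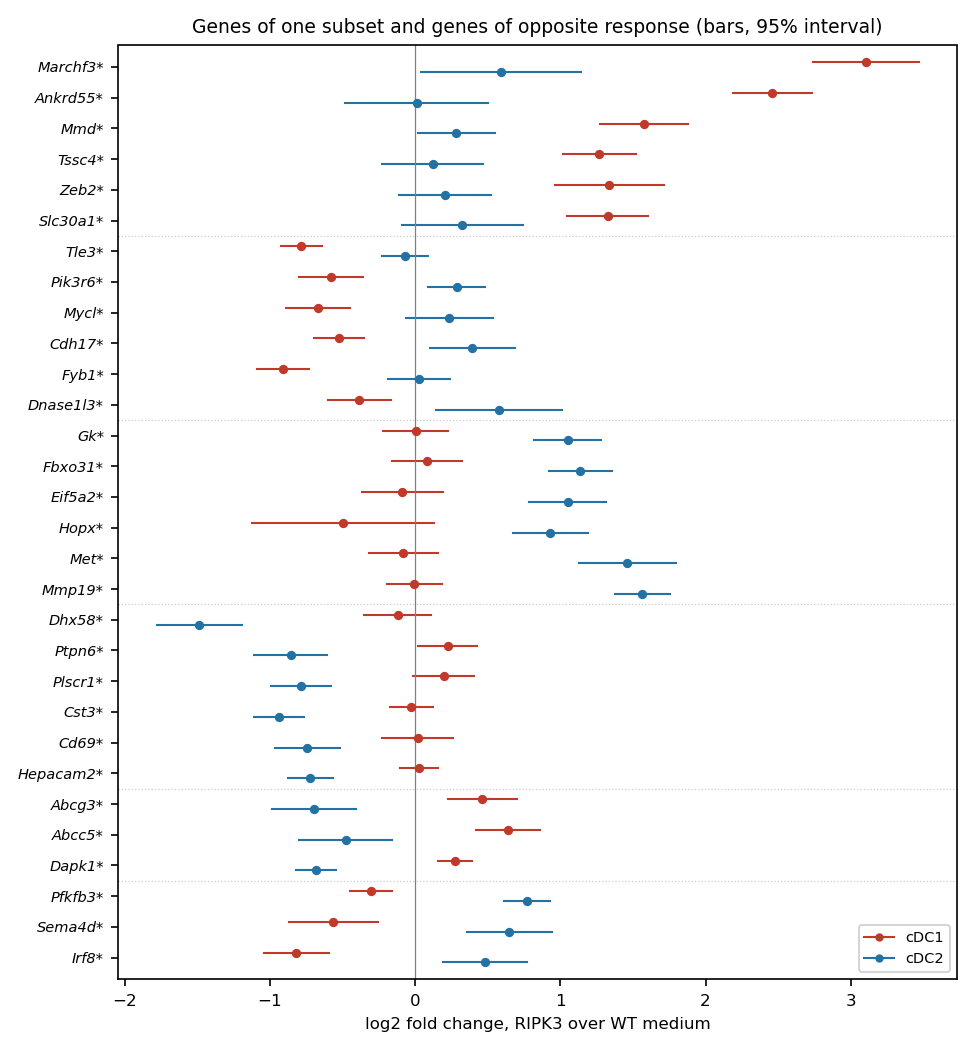
Log2 fold change with RIPK3 over WT medium in cDC1s (red) and cDC2s (blue) for the 30 genes named by the fixed rule as responding in 1 subset or in opposite directions. Points are edgeR estimates, bars their 95% intervals and an asterisk a called interaction. From top to bottom the blocks hold genes that rose or fell in cDC1s, rose or fell in cDC2s, and moved in opposite directions.

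Opposite responses were called for 14 genes, of which 12 could be measured in every group. Tll2 and Cacng3 had at most 3 counts in each sample of a group, so that no fold change is given for them. Irf8 (chr8:121463096-121485659), the factor that specifies cDC1s, fell in cDC1s from 315, 279 and 334 to 175, 167 and 184 CPM, and rose in cDC2s from 24.1, 19.9 and 18.4 to 33.2 and 25.0 CPM. The groups did not overlap in either subset, although replicate 2 of RIPK3_cDC2 lay only just above the highest WT sample. The responses were -0.82 (adjusted p = 1.09e-05) and 0.48 (adjusted p = 0.0288), with an interaction of -1.30 ± 0.17 (adjusted p = 0.000265). Even after the fall cDC1s had the higher level. Of the 10 cDC1 markers, Irf8 included, 3 rose and 2 fell in cDC1s, where 6.52% of all genes rose and 5.74% fell. In cDC2s 2 of them rose, Irf8 included, and 1 fell, where 6% of all genes rose and 5.05% fell. Clec9a, the receptor for actin of dead cells, rose in cDC1s from 229.9, 241 and 253 to 276, 283 and 295 CPM (log2 fold change 0.24, adjusted p = 0.0141), and Xcr1 rose by 0.57. Itgae, the integrin CD103, fell like Irf8 in cDC1s, from 48.6, 42.3 and 41.1 to 24.9, 25.3 and 23.5 CPM (log2 fold change -0.84).

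Pfkfb3 (chr2:11476244-11558888), which makes the strongest activator of the glycolytic enzyme phosphofructokinase, reversed its order between the subsets. With WT medium it was higher in cDC1s, at 305, 335 and 337 CPM against 247, 219 and 202 CPM in cDC2s. With RIPK3 medium it was higher in cDC2s, at 403 and 357 CPM against 259, 267 and 266 CPM in cDC1s. The interaction was -1.07 ± 0.11 (adjusted p = 3.87e-07). It was the only called gene among 24 of glycolysis, of which 7 rose and 4 fell in cDC1s and 8 rose and 2 fell in cDC2s. The share called, 4.17%, is that of 1 gene, against 1.14% of all genes, and over all genes 6.52% rose and 5.74% fell in cDC1s and 6% rose and 5.05% fell in cDC2s. Sema4d, a semaphorin, fell in cDC1s from 12.1, 12.0 and 12.8 to 9.26, 7.68 and 7.94 CPM and rose in cDC2s from 16.5, 25.0 and 19.3 to 27.6 and 35.7 CPM (interaction -1.21 ± 0.20, adjusted p = 0.00158). Tnip1, a binding protein that restrains NF-κB, moved little but in opposite directions, from 256, 253 and 253 to 227, 216 and 227 CPM in cDC1s and from 292, 296 and 299 to 333 and 346 CPM in cDC2s. Its interaction of -0.39 (adjusted p = 0.0141) was the only call with edgeR among 20 genes of NF-κB and its feedback (5%, against 1.14% of all genes, with 2 called by DESeq2 and 0 by limma on log2(count + 1)), and it was lost without RIPK3_cDC2 replicate 2, adjusted p = 0.123.

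The reverse order, a rise in cDC1s and a fall in cDC2s, was seen for a kinase and for transporters. Dapk1, death-associated protein kinase, had overlapping levels in both subsets with WT medium, 164, 168 and 163 CPM in cDC1s and 171, 159 and 169.8 CPM in cDC2s, and parted to 204, 200.2 and 195 CPM in cDC1s and 104 and 104 CPM in cDC2s. Its interaction of 0.96 ± 0.09 had an adjusted p of 1.44e-07. Abcc5, an exporter of cyclic nucleotides and other organic anions, went from 15.8, 19.1 and 18.8 to 30.6, 25.5 and 27.4 CPM in cDC1s and from 9.49, 8.20 and 6.85 to 6.14 and 5.62 CPM in cDC2s (interaction 1.12, adjusted p = 0.000865). Abcg3, a rodent transporter of the same superfamily, had 15.0, 17.1 and 16.1 CPM with WT and 17.5, 22.4 and 26.6 CPM with RIPK3 medium in cDC1s and 18.1, 16.3 and 19.2 CPM with WT and 10.3 and 11.7 CPM with RIPK3 medium in cDC2s (interaction 1.16, adjusted p = 0.000372). The other 6 of the 12 measured genes, picked by no rule of size, were Tec, Ado and Rasgef1b, which rose in cDC1s, and Plet1, Foxp1 and the already named Tnip1, which rose in cDC2s, with absolute interactions from 0.39 to 0.92. The call of Ado was lost without RIPK3_cDC2 replicate 2, adjusted p = 0.0885, and that of Plet1 without any 1 of 8 libraries (without RIPK3_cDC2 replicate 2, adjusted p = 0.147).

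Of the 79 genes that moved the same way, 50 rose in both subsets and more on the log2 scale in cDC1s. They included 11 antioxidant genes. Of 29 genes of oxidative stress and heme handling, 25 rose in cDC1s and 26 in cDC2s, where 6.52% and 6% of all genes rose, and none fell in either. For 11 (37.9%) the interaction was called, all 11 more positive in cDC1s, where 0.66% of all genes were. The median response was 1.53 in cDC1s and 1.04 in cDC2s, against medians of 0.00 and -0.01 over all genes, and the median interaction was 0.32. Without RIPK3_cDC2 replicate 2 the count of called genes was 6, and without RIPK3_cDC2 replicate 1 it was 7.

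Srxn1, sulfiredoxin, which repairs oxidized peroxiredoxins, rose in cDC1s from 417, 433 and 402 to 1522, 1550.1 and 1667 CPM and in cDC2s from 827, 936 and 1055 to 1727 and 1774 CPM. The gap between the subsets was wide with WT medium and narrow with RIPK3 medium. Its interaction was 1.02 ± 0.11 (adjusted p = 2.19e-06). Gclm, the modifier subunit of the enzyme that starts glutathione synthesis, went from 209, 234 and 230.4 to 1026, 978 and 1015 CPM in cDC1s and from 286, 329 and 352 to 933 and 915 CPM in cDC2s, ending slightly higher in cDC1s (interaction 0.64, adjusted p = 0.000865). Slc7a11, which imports cystine for the same pathway, rose from 362, 389.7 and 337 to 1070.0, 1100.1 and 912 CPM in cDC1s and from 1014, 924 and 719 to 1347 and 1352 CPM in cDC2s (interaction 0.89, adjusted p = 0.00523). For these 3 genes every sample with RIPK3 medium lay above every sample of its subset with WT medium. Gsr, glutathione reductase, rose from 40.2, 40.7 and 38.6 to 157, 150.0 and 154 CPM in cDC1s and from 167, 192 and 204 to 397 and 405 CPM in cDC2s, where it stayed the more abundant (interaction 0.85, adjusted p = 7.44e-05). Catalase, Cat, was the more abundant in cDC1s throughout, with 260.4, 250.2 and 270.4 CPM with WT and 927, 814 and 939.8 CPM with RIPK3 medium there and 196, 182 and 204 CPM with WT and 468 and 377 CPM with RIPK3 medium in cDC2s (interaction 0.66, adjusted p = 0.00198; without RIPK3_cDC2 replicate 2, adjusted p = 0.0716).

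The quinone reductase Nqo1 and the oxidative stress protein Osgin1 had the largest interactions of the list. Nqo1 rose in cDC1s from 6.52, 6.10 and 5.88 to 52.8, 42.4 and 44.6 CPM, about the level that cDC2s had with WT medium, 48.7, 42.0 and 57.9 CPM, while RIPK3 medium took cDC2s to 165 and 121 CPM. On the log2 scale these were 2.92 and 1.53, an interaction of 1.39 ± 0.25 (adjusted p = 0.0109), although the rise in CPM was larger in cDC2s. Osgin1 rose from 3.69, 4.07 and 3.73 to 21.1, 19.8 and 21.6 CPM in cDC1s and from 5.80, 7.46 and 7.50 to 11.9 and 16.5 CPM in cDC2s (interaction 1.40 ± 0.19, adjusted p = 3.8e-05). Blvrb, biliverdin reductase B, which acts after heme has been opened, had 24.2, 27.3 and 25.1 CPM with WT and 123, 109.6 and 125 CPM with RIPK3 medium in cDC1s and 81.8, 89.5 and 127 CPM with WT and 224 and 207 CPM with RIPK3 medium in cDC2s, an interaction of 1.11 (adjusted p = 0.0437) lost without any 1 of 8 libraries (without RIPK3_cDC2 replicate 2, adjusted p = 0.227). The called list was completed by Pgd and G6pdx, which make NADPH, and by Gclc, with interactions of 0.41, 0.52 and 0.41 and adjusted p of 0.0315, 0.0102 and 0.0486, and were lost without any 1 of 8, 2 and 9 libraries. Heme oxygenase did not belong to them. Hmox1, which opens the heme ring, rose from 569, 684 and 604 to 6523, 6605 and 6998 CPM in cDC1s and from 114, 179 and 162 to 2608 and 2735 CPM in cDC2s, with an interaction of -0.70 (95% interval -1.09 to -0.32, adjusted p = 0.0966). Spic, a heme-induced transcription factor, had an interaction of 0.10 (95% interval -0.55 to 0.76).

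NRF2 binds with small MAF proteins to the antioxidant response element, of which the letters TGANNNNGC were searched on both strands of RefSeq promoters (GRCm38.p6, from 250 bases before to 50 bases after the start). They occurred in 24 of the 36 genes of this class with a promoter in the table (66.7%) and in 47.7% of the tested genes with 1. Over all 32851 promoters the share was 41.3%, and a match describes letters only. Promoter stretches of called antioxidant genes are shown because these genes moved together, 5′ to 3′ on the strand of the gene, with matches on either strand in capitals: Srxn1 at chr2:152105454-152105512 (plus strand), Osgin1 at chr8:119437023-119437081 (plus strand), Slc7a11 at chr3:50443625-50443683 (minus strand) and Gclm at chr3:122245398-122245456 (plus strand).
Srxn1: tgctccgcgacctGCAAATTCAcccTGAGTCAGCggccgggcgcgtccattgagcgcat
Osgin1: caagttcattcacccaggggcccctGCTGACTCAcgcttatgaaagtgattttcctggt
Slc7a11: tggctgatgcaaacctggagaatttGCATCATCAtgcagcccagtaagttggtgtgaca
Gclm: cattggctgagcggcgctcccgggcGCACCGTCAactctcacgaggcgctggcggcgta
A stricter form that also holds an AP-1 site, TGANTCAGC, was present in 2 of the 36 promoters (5.56%), in 1.29% of those of tested genes and in 1.19% of all. It is a special case of the shorter pattern, and Srxn1 and Osgin1 hold it in the stretches shown.

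Some immediate early genes shared the pattern, but their list as a whole did not lean to cDC1s. The median interaction of the list was -0.06, and 11 of its 28 estimates were above 0. Of 28 genes of the early response and AP-1, 4 had a more positive and 2 a more negative interaction (21.4% called, against 1.14% of all genes), and 10 rose in cDC1s and 11 in cDC2s, where 6.52% and 6% of all genes rose. Fosl1, the AP-1 subunit FRA-1, rose from 0.897, 0.560 and 0.539 to 6.02, 5.92 and 5.41 CPM in cDC1s and from 3.54, 4.19 and 3.88 to 10.9 and 15.9 CPM in cDC2s (interaction 1.32, adjusted p = 0.0169). Egr2 rose from 2.09, 2.14 and 2.02 to 9.46, 9.49 and 8.74 CPM in cDC1s and from 2.41, 2.70 and 3.08 to 5.43 and 5.57 CPM in cDC2s (interaction 1.13, adjusted p = 0.00493). Atf3, a stress-induced repressor, was the more abundant in cDC1s and went from 71.5, 74.4 and 71.2 to 148, 169 and 166 CPM there and from 24.9, 27.7 and 24.9 to 33.4 and 39.0 CPM in cDC2s (interaction 0.67, adjusted p = 0.00731). Jun rose by 0.74 in cDC1s and 0.32 in cDC2s (adjusted p of the interaction 0.0223). Nr4a3, an orphan nuclear receptor, fell by 0.98 in cDC1s and by 0.29 in cDC2s, and Ier3, a regulator of cell survival, rose by 0.67 in cDC2s with 0.19 in cDC1s (adjusted p of the interactions 0.00355 and 0.026). The count for this list was 1 without RIPK3_cDC2 replicate 1, 3 without WT_cDC1 replicate 2 and 2 with limma on log2(count + 1) without normalization, and Egr2 alone was called in all alternatives. Atf3 and Nr4a3 were lost without RIPK3_cDC2 replicate 1 (adjusted p = 0.110 and 0.0552), and Fosl1, Jun and Ier3 without any 1 of 3, 7 and 6 libraries. None of 20 genes of the ATF4 stress response had a called interaction with edgeR, 2 had an unadjusted p under 0.05 and 1 was called with DESeq2.

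The genes named for the largest difference among those that rose in both subsets were not antioxidant enzymes. Cdcp1, a transmembrane substrate of SRC kinases, had 0.349, 0.203 and 0.494 CPM with WT and 3.14, 4.12 and 2.53 CPM with RIPK3 medium in cDC1s and 17.1, 13.5 and 12.6 CPM with WT and 31.0 and 25.4 CPM with RIPK3 medium in cDC2s (interaction 2.22 ± 0.36, adjusted p = 0.000681). Sel1l3 rose from 1.30, 1.73 and 0.943 to 19.3, 14.7 and 20.2 CPM in cDC1s and from 2.00, 2.93 and 3.02 to 11.7 and 13.2 CPM in cDC2s (interaction 1.54 ± 0.28, adjusted p = 0.0021). Pla2g7, a secreted phospholipase that hydrolyzes platelet-activating factor and oxidized phospholipids, rose from 11.2, 9.82 and 9.47 to 113, 79.4 and 96.4 CPM in cDC1s and from 25.3, 21.7 and 31.4 to 93.5 and 73.9 CPM in cDC2s. Its interaction of 1.57 (adjusted p = 0.0202) was lost without any 1 of 6 libraries (without RIPK3_cDC2 replicate 2, adjusted p = 0.121). Clec4n, the C-type lectin receptor dectin-2, rose from 120.1, 144 and 121 to 466, 479 and 481 CPM in cDC1s and from 660.3, 748 and 869 to 1262 and 1244 CPM in cDC2s (interaction 1.17 ± 0.13, adjusted p = 2.42e-06). In each of these 4 genes all samples with RIPK3 medium lay above all samples of their subset with WT medium. Clec4n was 1 of 2 called among 24 genes of pattern recognition (8.33%, against 1.14% of all genes), 1 positive and 1 negative, and the count was 1 without any 1 of 7 libraries. Cd300a, a receptor for phosphatidylserine on dying cells, rose by 0.80 in cDC1s and 0.30 in cDC2s (adjusted p of the interaction 0.0169, lost without any 1 of 3 libraries; without RIPK3_cDC2 replicate 1, adjusted p = 0.166), and of 25 tested receptors and bridges for dying cells it and Lrp1 were the called ones (8%, against 1.14% of all genes, and 0 with limma on log2(count + 1)). Picked after their values were seen, Lipa, the lysosomal acid lipase that frees cholesterol from its esters, rose from 82.1, 88.3 and 89.7 to 310.3, 285 and 313 CPM in cDC1s and from 86.9, 97.7 and 101 to 178 and 179.6 CPM in cDC2s (interaction 0.89, adjusted p = 2.96e-05), and Abcc1, an exporter of glutathione conjugates, by 1.45 and 0.85 (adjusted p of the interaction 0.000622).

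Most genes of this class started from a lower level in cDC1s. Of the 50 genes, 40 were higher in cDC2s than in cDC1s with WT medium, against 125 of all 217 called genes. In absolute CPM 32 rose more in cDC1s and 18 rose more in cDC2s. The gap between the subsets was smaller with RIPK3 than with WT medium for 38. The class is defined by the larger rise in cDC1s, so a gene that starts lower there narrows its gap unless it rises well past cDC2s. The count of 38 therefore follows largely from how the class was chosen. Over all classes the gap was narrower for 94 of 210 called genes (44.8%) and for 46.3% of 11002 genes measured in both subsets.

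A larger rise in cDC2s was found for 12 genes. Sema4f, a semaphorin abundant in cDC1s, rose there from 67.2, 75.0 and 67.7 to 132, 153 and 145 CPM and in cDC2s from 0.564, 0.574 and 0.540 to 2.20 and 2.99 CPM, the subset with few transcripts. The interaction of -1.18 (adjusted p = 0.019) was lost without any 1 of 4 libraries (without RIPK3_cDC2 replicate 2, adjusted p = 0.371). P2ry6, a receptor for UDP released by damaged cells, rose from 14.1, 13.6 and 16.3 to 19.2, 19.9 and 19.6 CPM in cDC1s and from 1.69, 1.55 and 1.35 to 3.94 and 5.27 CPM in cDC2s (interaction -1.18, adjusted p = 0.0151; without RIPK3_cDC2 replicate 2, adjusted p = 0.281). Arl4c, an LXR target, rose by 0.36 in cDC1s and 0.79 in cDC2s (adjusted p of the interaction 0.0111; without RIPK3_cDC2 replicate 2, adjusted p = 0.0785). A larger fall in cDC1s was found for 5 genes, led by Fcgr1, the high-affinity IgG receptor CD64, which went from 5.43, 5.34 and 4.22 to 0.910, 1.20 and 1.32 CPM in cDC1s and from 12.5, 15.6 and 17.6 to 9.05 and 10.5 CPM in cDC2s (interaction -1.48 ± 0.27, adjusted p = 0.00198). Fcgr1 is also a macrophage marker, and the summed macrophage markers were lower with RIPK3 medium in both subsets, as given above; their part in this result was not tested.

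Interferon-stimulated genes fell in both subsets, and 6 of them fell more, or alone, in cDC2s. Of 43 genes, 32 fell and 1 rose in cDC1s, and 39 fell and none rose in cDC2s, where 5.74% and 5.05% of all genes fell. The median response was -0.89 in cDC1s and -1.49 in cDC2s. The interaction was called for 6 genes (14%), all 6 positive, where 0.66% of all genes were, and its estimate was above 0 for 38 of the 43, with a median of 0.55. Estimates above 0 were found for 9981 of all 19082 genes. The count of called genes moved with the libraries and with the test: it was 2 without RIPK3_cDC2 replicate 2 and 3 without WT_cDC2 replicate 1, WT_cDC1 replicate 2, RIPK3_cDC1 replicate 1 or RIPK3_cDC1 replicate 3, and it was 10 with DESeq2 and 9 with limma on log2 CPM.

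Dhx58, described above, had the largest called interaction of the list. Oasl2, an oligoadenylate synthetase-like protein, fell in cDC2s from 294, 283 and 332 to 104 and 87.5 CPM and in cDC1s from 107, 98.7 and 122 to 90.2, 66.6 and 88.5 CPM. With WT medium cDC2s had the higher level and with RIPK3 medium the groups overlapped (interaction 1.25 ± 0.20, adjusted p = 0.00358). Mx2, an antiviral dynamin-like GTPase, fell in cDC2s from 11.9, 10.6 and 11.1 to 2.78 and 1.58 CPM and in cDC1s from 8.37, 8.39 and 9.97 to 4.10, 3.46 and 4.08 CPM. Its interaction of 1.17 (adjusted p = 0.0348) was lost without any 1 of 6 libraries (without RIPK3_cDC2 replicate 2, adjusted p = 0.475). Mx1 fell in cDC2s from 21.4, 22.1 and 17.3 to 7.63 and 5.68 CPM and in cDC1s from 20.3, 22.6 and 23.1 to 14.3, 11.3 and 17.4 CPM, with an interaction of 0.99 (adjusted p = 0.0269), and reads of these neighboring paralogs may be hard to tell apart. Rsad2, which encodes the antiviral enzyme viperin, fell in cDC2s from 47.2, 47.4 and 47.0 to 19.3 and 13.9 CPM and in cDC1s from 16.0, 16.4 and 17.7 to 12.4, 9.29 and 12.8 CPM (interaction 0.97, adjusted p = 0.0313). The calls for Mx1 and Rsad2 were lost without any 1 of 7 and 8 libraries. Tor3a, an interferon-induced ATPase and the sixth called gene, is the more abundant in cDC1s. It fell by 0.79 there and by 1.53 in cDC2s (interaction 0.74, adjusted p = 0.00728; without RIPK3_cDC2 replicate 2, adjusted p = 0.123).

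Genes with large estimates in the same list did not all pass. Ifit1, which binds foreign RNA caps, fell in cDC2s from 41.7, 41.9 and 42.4 to 7.70 and 5.68 CPM and in cDC1s from 2.74, 2.90 and 2.92 to 0.910, 1.30 and 1.15 CPM, with an interaction of 1.31 (95% interval 0.57 to 2.06, adjusted p = 0.0928). Isg15, a ubiquitin-like modifier, had an estimate in the other direction of -0.52 (95% interval -1.09 to 0.05): it fell in cDC1s from 25.6, 22.5 and 26.4 to 15.3, 13.0 and 20.2 CPM and measured 62.1, 60.5 and 85.1 CPM with WT and 70.2 and 58.5 CPM with RIPK3 medium in cDC2s.

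**Figure D4:**
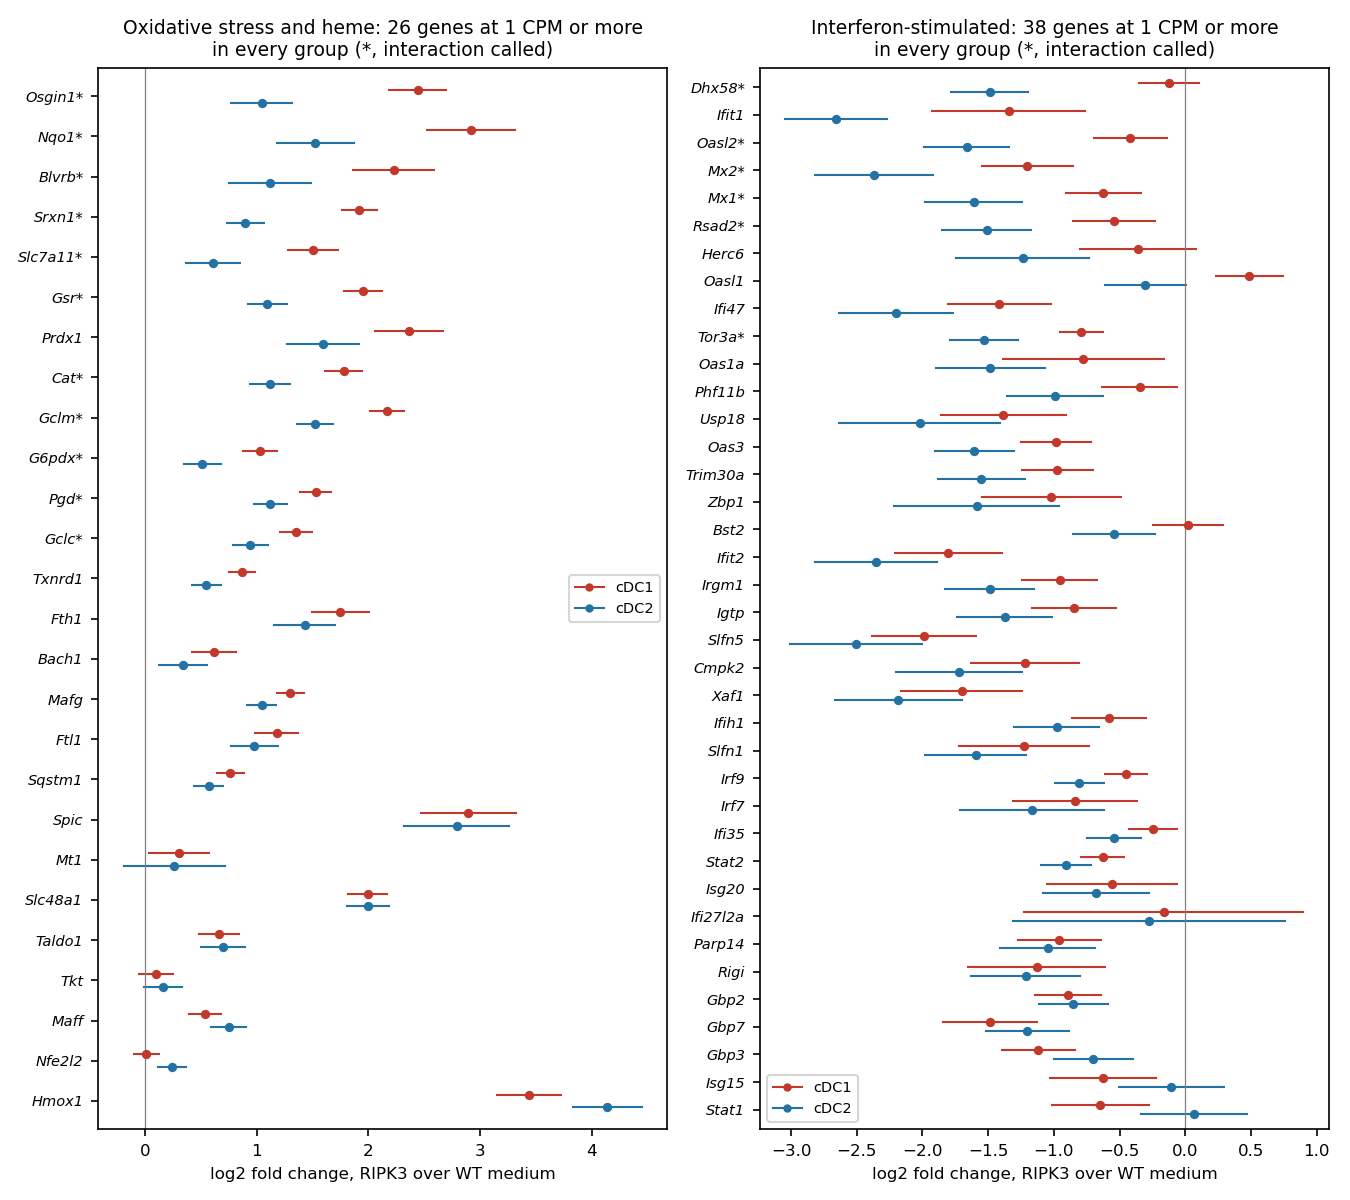
Log2 fold change with RIPK3 over WT medium in cDC1s (red) and cDC2s (blue), with 95% intervals, for the genes of the oxidative stress and heme list (left, 26 genes) and of the interferon-stimulated list (right, 38 genes) with a mean of at least 1 CPM in every group. Genes are ordered by their interaction, and an asterisk marks a called one. On the left most red points lie to the right of the blue ones, at larger rises, and on the right most red points lie nearer to 0, at smaller falls.

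Interferon acts through the factor ISGF3, which binds the interferon-stimulated response element, here searched as TTTCNNTTTC on both strands. Of 32 genes that fell in cDC2s alone or more in cDC2s, 21 had a promoter in the RefSeq table, and 5 of them (23.8%) held the pattern, against 3.97% of the promoters of tested genes and 3.44% of all. Of the 6 called genes of the interferon-stimulated list, 2 had a promoter there and 1 held the pattern. Trim12c and Pde1b also held it, at 19 and 40 bases from the start, and are not shown. Promoter stretches of 3 of these, picked by no fixed rule, are shown with the match in capitals: Rsad2 at chr12:26456538-26456597 (minus strand), Irgm2 at chr11:58214888-58214947 (plus strand) and Ifi207 at chr1:173741816-173741875 (minus strand), all in GRCm38.p6.
Rsad2: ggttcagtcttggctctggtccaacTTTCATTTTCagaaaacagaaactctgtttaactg
Irgm2: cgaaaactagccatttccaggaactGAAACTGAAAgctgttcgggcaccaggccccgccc
Ifi207: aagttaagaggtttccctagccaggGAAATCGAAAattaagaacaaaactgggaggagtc
Irgm2, an immunity-related GTPase, fell by 0.58 in cDC1s and by 1.33 in cDC2s (interaction 0.74, adjusted p = 0.031), a call lost without any 1 of 6 libraries (without RIPK3_cDC2 replicate 2, adjusted p = 0.282). Ifi207, of the interferon-inducible p200 family, fell by 0.32 and by 1.00 (interaction 0.68, adjusted p = 0.0101; without RIPK3_cDC2 replicate 2, adjusted p = 0.134). Both are outside the list and were picked for their sequence.

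Other lists gave few or no called genes. None of 29 cell division genes had a called interaction with edgeR (1 at an unadjusted p under 0.05, 1 with DESeq2), and their median was -0.07. In the maturation list the costimulatory genes Cd80, Cd86 and Cd40 had interactions of -0.21, -0.01 and 0.18 (95% intervals -0.40 to -0.01, -0.19 to 0.17 and -0.06 to 0.41). Ccr7, the receptor for migration to lymph nodes, had -0.38 (95% interval -0.75 to 0.00).

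With medium of apoptotic TC-1-iBimS cells, measured against the same WT samples, the same difference between subsets was computed on the log2 scale for each gene named by rule. For the genes named for a rise in cDC1s it was 1.98 for Marchf3, 1.86 for Ankrd55, 0.93 for Mmd, 0.79 for Tssc4, 1.35 for Zeb2 and 0.97 for Slc30a1. The genes named for a fall in cDC1s had -0.12 for Dnase1l3, -0.69 for Fyb1, -0.37 for Cdh17, -0.76 for Mycl, -0.58 for Pik3r6 and -0.48 for Tle3. Among the genes named for a rise in cDC2s the values were -1.40 for Mmp19, -1.75 for Met, -0.50 for Hopx, -0.86 for Eif5a2, -0.96 for Fbxo31 and -0.82 for Gk. In the genes named for a fall in cDC2s they were 0.86 for Dhx58, 1.10 for Ptpn6, 1.10 for Plscr1, 0.54 for Cst3, 0.06 for Cd69 and 0.31 for Hepacam2. The genes of opposite response gave -0.78 for Irf8, 0.18 for Sema4d, -0.93 for Pfkfb3, 0.30 for Abcg3, 1.24 for Abcc5 and 0.64 for Dapk1. Last, the genes of unequal response in 1 direction had 1.53 for Cdcp1, 1.17 for Pla2g7, 1.10 for Sel1l3, -0.84 for Fcgr1, 0.87 for Oasl2, 0.50 for Mx2, -0.91 for Sema4f and -0.99 for P2ry6. The adjusted p of edgeR missed 0.05 for Tssc4, Dnase1l3, Cdh17, Hopx, Cd69, Hepacam2, Sema4d, Abcg3, Pla2g7, Fcgr1, Mx2, Sema4f and P2ry6. Since both interactions share the WT samples, the values are given side by side and their likeness was not tested.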

How the data were processed

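RNA of sorted cDC1s and cDC2s was sequenced after culture with medium of WT, TC-1-iRIPK3 or TC-1-iBimS cells. The raw counts per gene that the authors deposited come from reads trimmed, aligned to GRCm39 with STAR 2.7.10a and counted per Ensembl gene; whether strand was used is not given in the sources used here. A table of normalized values was not used. Lines without a gene ID were left out, and these held 0.0258% to 0.0366% of counts.

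Genes with a count in at least 50% of the 17 samples (19082) were tested with edgeR 4.0.16 (TMM, robust quasi-likelihood F-test, 6 group means, R 4.3.3). The interaction and both responses came from this fit, with Benjamini-Hochberg adjustment over all genes and a threshold of 0.05. The model for counts replaced the limma test on log2(count + 1) of the study's methods, which was run as an alternative (limma 3.58.1), as was DESeq2 1.42.0. A group in which no sample exceeded 3 counts was at the floor. CPM are normalized by TMM, SE is the standard error, and intervals come from the model.

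By rule, among called genes with a mean of at least 10 CPM in 1 of the groups, the largest absolute interactions were named: up to 6 for each direction in 1 subset, 6 opposite, and 4 for each subset among the rest. Called members of the gene lists could be named too. Members, lists and rule were chosen with earlier results of these data known. The procedure was run on counts simulated from its own model, with independent samples and changes placed in RIPK3_cDC1 alone. That run cannot show how it fares where replicates share effects.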

Additional observations from a re-analysis of the deposited data

Results flagged for a closer look

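The response differed between cDC1s and cDC2s, by edgeR's test of the interaction, for all 38 genes named by rule, and the interactions (log2, cDC1 minus cDC2) are listed here by class. Genes that rose in cDC1s and missed the threshold in cDC2s had 2.51 (Marchf3), 2.45 (Ankrd55), 1.29 (Mmd), 1.15 (Tssc4), 1.13 (Zeb2) and 1.00 (Slc30a1). Genes that fell in cDC1s and missed the threshold in cDC2s had -0.96 (Dnase1l3), -0.94 (Fyb1), -0.92 (Cdh17), -0.91 (Mycl), -0.87 (Pik3r6) and -0.72 (Tle3). Genes that rose in cDC2s and missed the threshold in cDC1s had -1.57 (Mmp19), -1.54 (Met), -1.43 (Hopx), -1.14 (Eif5a2), -1.06 (Fbxo31) and -1.05 (Gk). Genes that fell in cDC2s and missed the threshold in cDC1s had 1.37 (Dhx58), 1.08 (Ptpn6), 0.98 (Plscr1), 0.91 (Cst3), 0.76 (Cd69) and 0.75 (Hepacam2). Opposite responses gave -1.30 (Irf8), -1.21 (Sema4d), -1.07 (Pfkfb3), 1.16 (Abcg3), 1.12 (Abcc5) and 0.96 (Dapk1). Unequal responses in 1 direction gave 2.22 (Cdcp1), 1.57 (Pla2g7), 1.54 (Sel1l3), -1.48 (Fcgr1), 1.25 (Oasl2), 1.17 (Mx2), -1.18 (Sema4f) and -1.18 (P2ry6). No group had the 4 samples that a check for single outlying samples needs.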

How the results depend on the processing

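Of 20 alternatives, 9 changed the tool, scaling, filter, samples or blocking and 11 left out 1 library each. No called gene changed the sign of its interaction in an alternative that tested it, 54 of 217 were called in all of them, and so were 24 of the 38 genes named by rule. With DESeq2 305 genes were called, of which 102 in cDC2s alone. Without a filter on low counts 371 genes were called, with 97 in cDC1s alone, 119 in cDC2s alone and 124 in the same direction. With limma on log2(count + 1) without normalization 109 were called, with 33 in cDC1s alone, 30 in cDC2s alone, 5 opposite and 41 in the same direction. A fit of the 11 samples called 179, with 9 opposite. The cause of these differences was not tested.

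Leaving out 1 library gave 111 to 258 called genes, 37 to 67 in cDC1s alone, 33 to 87 in cDC2s alone, 5 to 16 opposite and 31 to 89 in the same direction, and 1693 to 2713 genes for the response in cDC1 and 1227 to 2377 for the response in cDC2. The lowest count came without RIPK3_cDC2 replicate 2 and the highest without WT_cDC2 replicate 3. Without either RIPK3_cDC2 library the group has 1 sample, assumed to vary like the others. Of the named genes, limma on log2(count + 1) lost Cd69, Cdh17, Dnase1l3, Hopx, P2ry6, Pik3r6, Slc30a1 and Tle3, and the fit of the 11 samples lost Dnase1l3 and Zeb2.

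Replicate numbers recur across groups, but nothing says that they mark a shared culture, and 14 of 15 correlations of same-numbered deviations passed 0.1, the lowest being 0.026, so that the pairing was not taken as established. Across media, the median for the same number was 0.28 within a subset and 0.28 between subsets, against -0.16 and -0.16 for different numbers. Between subsets in the same medium it was 0.16 against -0.09. The main fit holds no term for the replicate number. With a replicate block 449 genes were called (251 positive, 198 negative), among them all 217, with 116 in cDC1s alone, 141 in cDC2s alone, 23 opposite and 161 in the same direction. The class was the same for 199 of the 217. Among the genes named by rule, Ptpn6, Pik3r6 and Dnase1l3 became opposite and Mmd rose in both subsets. A block by number and medium called 241, of which 185 are shared with the 217. Psmb8, P2rx7 and Ier3 were among the calls lost under this block.

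RIPK3_cDC2 holds only 2 samples, which limits every cDC2 estimate.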
